A study of Mus musculus with 7 samples.

Results

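The germline genes described here are Dazl, Ddx4, Mael, Tdrd1, Asz1, Sycp1, Sycp3, Hormad1, Tex101 and Stk31. These 10 genes were chosen because they are known to be repressed by DNA methylation of their promoters in somatic cells, and the rule that defines them uses no measured value. All 10 were found in the mouse annotation (GENCODE release M1, genome build mm9), out of 22372 annotated protein-coding genes, of which 22089 had a promoter covered by the data. For each gene, 5-formylcytosine (5fC) was read at the promoter, defined as 1 kb on either side of the transcription start site (TSS), and over the gene body.

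Germline genes of this kind have CpG-rich promoters that are free of methylation in germ cells and gain 5-methylcytosine (5mC) in the embryo, after which they stay silent in the soma. TET enzymes oxidize 5mC to 5-hydroxymethylcytosine and then to 5fC, and the glycosylase TDG removes 5fC, which is replaced by unmodified cytosine through base excision repair. A promoter that carries 5mC in ES cells, where TET1 and TET2 are active, is therefore a possible substrate for 5fC. Methylation and expression were not analysed here. The repressed state of these genes in the cells studied, and the identity of the cells by marker expression, were therefore not checked. The paper supplies regions enriched in 5mC in wild-type cells, but the promoters of these genes were not looked up among them.

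5fC was labeled with a biotin-bearing aldehyde reactive probe, pulled down and sequenced in J1 cells, a mouse ES cell line of 129S4/SvJae background, under 3 conditions with 2 biological replicates each. Wild-type cells received no siRNA and were grown on irradiated mouse embryonic fibroblast feeders (libraries bham359_362 and bham470). The siRNA control (bham479 and ear001) and TDG KD (bham480 and ear003) cells were kept without feeders and were transfected repeatedly with a non-targeting siRNA or with siRNA against Tdg. The presence of feeders and the absence of transfection therefore cannot be told apart between wild type and the siRNA cultures, and expression of Tdg was not analysed here. Labels give no day or batch, but the siRNA libraries have names with the prefixes BHAM or EAR, and differences are given within each prefix as well.

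The authors called domains in each library against the same genomic input, and each stretch of the genome has the state enriched, background or unconfident and a score, which is the number of pulldown reads per 100 bp bin in excess of input reads, averaged over the domain. A promoter was called enriched if at least 1 bp of it lay in an enriched domain. Its level is given as excess, the score averaged over the window minus the mean of the library, in reads per kb per M uniquely placed reads, so that 0 is the genome average of that library. The input was shared, so a locus poorly covered in the input is raised in all 6 pulldowns. The libraries had 20.4 to 45.9 M reads, and 2 of them stood apart. The enriched domains of bham359_362 numbered 389620, at a median width of 700 bp, whereas the other libraries had 4901 to 40121 domains with median widths of 5900 to 24550 bp. In bham480 the mean score was -0.277, against 0.0386 to 0.793 elsewhere, and 505 Mb were unconfident, against 0.214 to 6.3 Mb.

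The promoters differed in sequence as well as in 5fC, and 5 of them are shown to make the later contrasts concrete. Sycp1 and Sycp3 were enriched in both wild-type replicates and in a TDG KD library, Ddx4 in bham359_362 alone, Hormad1 at its edge in bham470, and Tex101 in all libraries but bham480. Each stretch has 280 bases on the coding strand, 250 before the TSS and the first 30 of the transcript, with CpG dinucleotides in capitals, from the mm9 sequence (NCBIM37). The positions are chr3:102739994-102740273 on the minus strand for Sycp1, chr10:87922064-87922343 on the plus strand for Sycp3, chr13:113442489-113442768 on the minus strand for Ddx4, chr3:95363350-95363629 on the plus strand for Hormad1 and chr7:25457040-25457319 on the minus strand for Tex101. The other genes lie at chr17:50418719-50432924 (Dazl, minus strand), chr1:168131516-168168875 (Mael, minus), chr19:56900699-56944502 (Tdrd1, plus), chr6:18000964-18059061 (Asz1, minus) and chr6:49345603-49419500 (Stk31, plus).
Sycp1: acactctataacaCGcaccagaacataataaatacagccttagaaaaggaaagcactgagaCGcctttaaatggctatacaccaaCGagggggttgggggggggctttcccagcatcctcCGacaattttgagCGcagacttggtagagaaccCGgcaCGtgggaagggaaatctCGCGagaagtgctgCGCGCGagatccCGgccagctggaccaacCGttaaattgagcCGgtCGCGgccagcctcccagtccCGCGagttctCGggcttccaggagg
Sycp3: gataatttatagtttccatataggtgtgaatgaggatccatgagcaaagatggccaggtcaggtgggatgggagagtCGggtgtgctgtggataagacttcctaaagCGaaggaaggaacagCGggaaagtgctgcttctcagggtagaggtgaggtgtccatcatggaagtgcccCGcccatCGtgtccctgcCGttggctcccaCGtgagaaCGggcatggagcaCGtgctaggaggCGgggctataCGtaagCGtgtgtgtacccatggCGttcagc
Ddx4: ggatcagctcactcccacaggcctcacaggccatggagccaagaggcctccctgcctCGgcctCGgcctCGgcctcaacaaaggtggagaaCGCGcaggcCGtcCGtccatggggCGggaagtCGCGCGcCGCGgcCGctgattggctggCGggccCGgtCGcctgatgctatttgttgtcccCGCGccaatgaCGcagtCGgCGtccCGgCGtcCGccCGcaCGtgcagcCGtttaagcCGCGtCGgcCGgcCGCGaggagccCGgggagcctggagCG
Hormad1: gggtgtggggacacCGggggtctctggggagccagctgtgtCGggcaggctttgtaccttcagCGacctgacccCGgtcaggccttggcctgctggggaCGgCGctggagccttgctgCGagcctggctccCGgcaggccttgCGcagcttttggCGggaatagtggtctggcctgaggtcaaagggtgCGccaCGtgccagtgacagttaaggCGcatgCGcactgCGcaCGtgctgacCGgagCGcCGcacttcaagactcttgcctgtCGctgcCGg
Tex101: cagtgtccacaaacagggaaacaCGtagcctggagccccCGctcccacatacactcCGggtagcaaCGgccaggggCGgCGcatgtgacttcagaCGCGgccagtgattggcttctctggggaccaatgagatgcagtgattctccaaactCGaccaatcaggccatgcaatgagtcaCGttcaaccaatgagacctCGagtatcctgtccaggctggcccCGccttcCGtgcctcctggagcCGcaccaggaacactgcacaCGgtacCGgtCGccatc

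In these stretches Ddx4 had the most CpGs of the genes shown, with 36, followed by Hormad1 with 21, Sycp1 with 20, Tex101 with 17 and Sycp3 with 13. The 5 genes not shown had 16 (Tdrd1) to 27 (Dazl and Stk31) CpGs. Over the full window of 2 kb, the count was 141 in Dazl, 101 in Sycp1, 91 in Ddx4 and 75 in Mael, then 67 in Stk31, 66 in Sycp3, 63 in Tdrd1, 58 in Hormad1, 50 in Asz1 and 44 in Tex101. Among all genes, Dazl, Sycp1, Ddx4 and Mael ranked at the 91.8, 75.9, 69.7 and 59.1 percentile by this count. The rest ranked near the middle, from the 53.5 percentile in Stk31 to the 40.5 percentile in Tex101. Promoters were classed as high, intermediate or low in CpG by GC content and CpG ratio in windows of 500 bp near the TSS. Of the 10 genes, 7 were high (Dazl, Ddx4, Mael, Tdrd1, Sycp1, Hormad1 and Stk31), 3 were intermediate (Asz1, Sycp3 and Tex101) and 0 were low, beside 41.5%, 20.9% and 37.6% of all genes. Over all genes in bham359_362, 94.2% of high, 82.8% of intermediate and 58.8% of low promoters were enriched. In the control libraries high and intermediate promoters were nearly level, at 50.2% and 51.1% in bham479 and 44.1% and 44.3% in ear001.

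Besides CpGs, the stretches shared short motifs. CACGTG, the E-box bound by dimers that contain MAX, was searched on both strands, as was GCGGGA, part of the site of E2F6, since both proteins belong to a repressor complex known at germline genes. CACGTG was present in 7 of the 10 stretches (Ddx4, Mael, Tdrd1, Sycp1, Sycp3, Hormad1 and Stk31), compared with 7.49% of all promoters and 11.0% of those high in CpG. GCGGGA was present in 5 (Ddx4, Mael, Sycp1, Sycp3 and Hormad1), compared with 23.9% and 43.3%. Counting from the TSS as 0, the E-box of Ddx4 began at -29, that of Tdrd1 at -11 and that of Sycp1 at -94. Sycp3 had copies at -46 and -25 and Hormad1 at -58 and -21. The E-boxes of Stk31 and Mael lay farther upstream, at -120 and -223. The motifs do not overlap in these stretches, and Dazl, Asz1 and Tex101 had neither. A match is a description of the sequence and was not tested against binding.

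In wild-type cells, 5fC was found at all 10 promoters in bham359_362 and at 4 of them in bham470. The background was 78.5% of all genes in bham359_362 and 49.6% in bham470, so the first count was above the share of all genes and the second, 40.0%, was below it. None of the 10 promoters was low in CpG. Over all genes 94.2% of high and 82.8% of intermediate promoters were enriched in bham359_362, and 56.8% and 53.6% in bham470. The count in bham359_362 also depended on the call. With at least 50% of the window enriched it was 5, beside 51.2% of all genes, and with the 25% of domains of lowest score dropped it was 8, beside 62.2%. The 4 promoters enriched in both replicates were those of Sycp1, Sycp3, Hormad1 and Tex101, while 48.4% of all genes were enriched in both. Ddx4, Mael, Asz1 and Stk31 were enriched in bham359_362 and in no other library, a pattern shared by 15.8% of all genes.

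**Figure D1:**
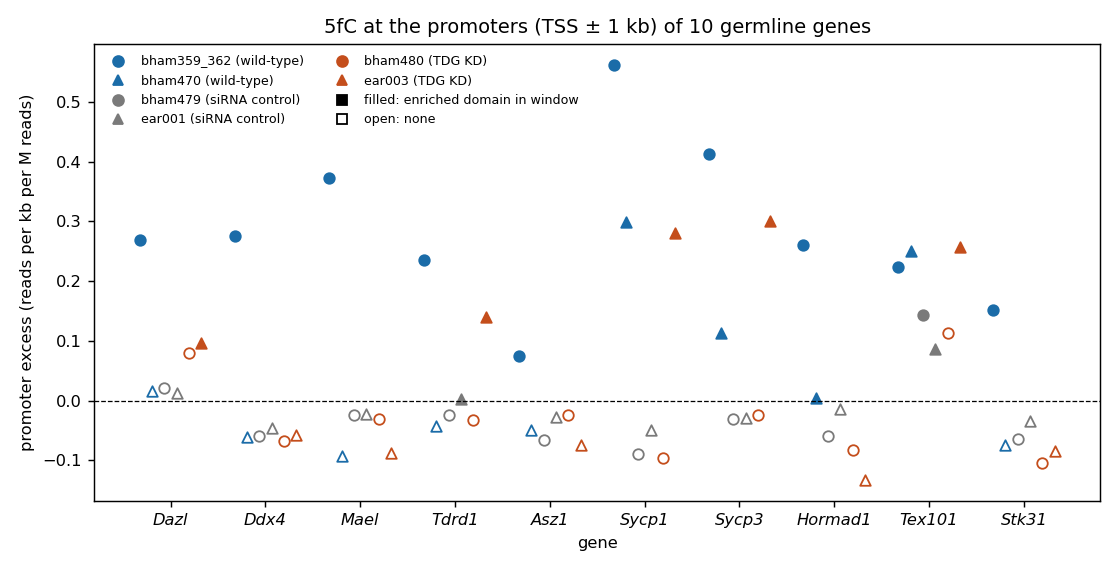
Promoter excess (reads per kb per M reads, y axis) of each gene (x axis) in the 6 libraries, colored by condition, with filled symbols for promoters that hold an enriched domain and a dashed line at the library mean. The circles of bham359_362 are filled for all 10 genes, and in the other libraries Tex101 was the gene with the most filled symbols.

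At the promoters in bham359_362, the enrichment was narrow and sat on the TSS. Narrow domains were general in this library, with a median of 700 bp over all its enriched domains, and were not particular to these genes. The domain that held the TSS was 500 bp (Asz1) to 9000 bp (Tex101) wide, with a median of 1100 bp, and its score ran from 2.19 reads per bin in Tdrd1 to 4.83 in Stk31. Apart from Tex101 it began at -1287 to -43 bp from the TSS and ended at 348 to 1407 bp. At the TSS itself 10 of 10 genes lay in an enriched domain, beside 63.1% of all genes, and 2 kb upstream 0 of 10 did, beside 29.4%. The mean excess at the TSS was 0.629, against 0.302 over all genes. At 2 kb upstream it was -0.093, against 0.080. Other enriched domains lay farther out. At -4000 bp 5 of 9 genes were enriched, beside 29.4% of all genes, with a mean excess of 0.299, against 0.081. That was the highest share upstream of the peak at the TSS, and at -3250 and -5000 bp it was 1 of 10. The middle of the densest 500 bp of CpGs was inside the TSS domain at 9 genes. Dazl was the exception, where it lay 670 bp downstream of the TSS. The domain held 44.0% (Asz1) to 98.4% (Tdrd1) of the CpGs in the window.

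**Figure D2:**
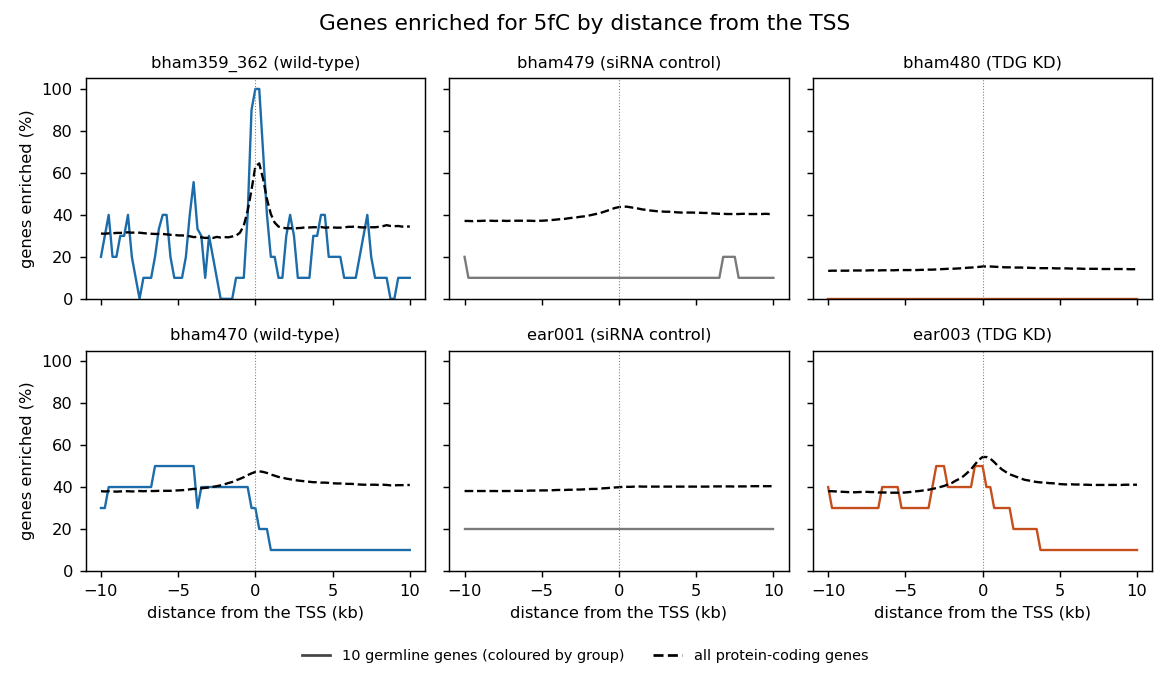
Share of genes in an enriched domain (%, y axis) by distance from the TSS (kb, x axis) in each library, with the 10 germline genes as a solid line and all protein-coding genes as a dashed line. In bham359_362 the germline genes go from 0 of 10 at 2 kb upstream to 10 of 10 at the TSS, and in the other libraries the line has no such peak. Farther upstream in bham359_362 the share is highest at -4000 bp, with 5 of 9, and is 1 of 10 at -3250 and -5000 bp.

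The replicate bham470 had no such narrow peak. There the TSS was in an enriched domain at 3 of the genes, beside 47.2% of all genes, and the share 2 kb upstream was 4 of 10, beside 41.3%. At the 7 genes whose TSS was in the background state, the background domain was 22600 to 851000 bp wide, so the value of these promoters in bham470 is an average over a stretch far longer than the window. Domains as narrow as those of bham359_362 could not be compared between the replicates for this reason.

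**Figure D3:**
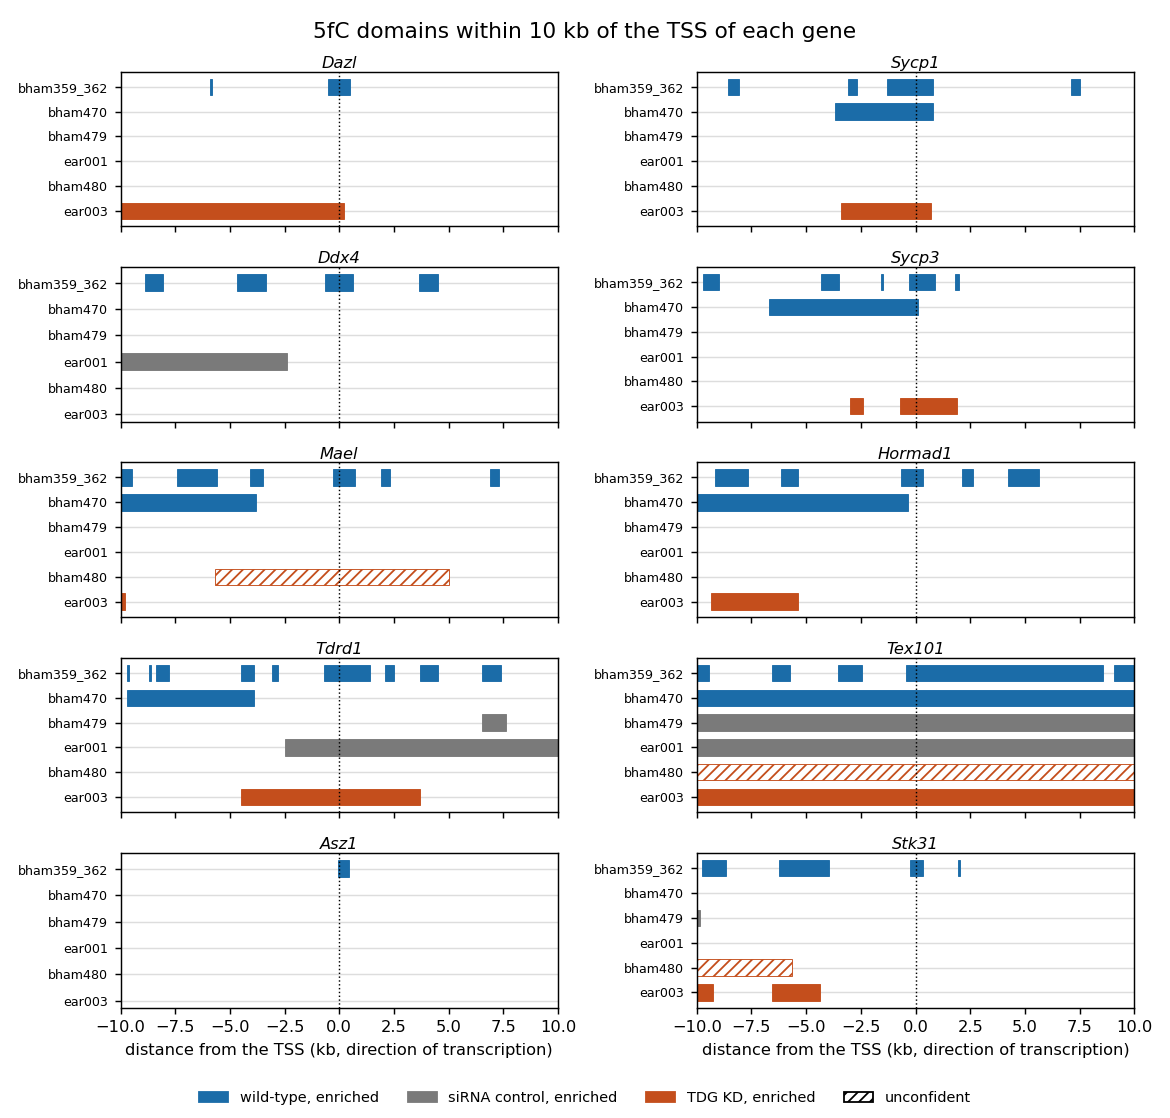
Enriched domains (filled) and unconfident domains (hatched) within 10 kb of the TSS of each gene (kb, x axis, in the direction of transcription) in the 6 libraries (rows), colored by condition; blank stretches are background or not covered. All 10 genes have a domain over the TSS in bham359_362, and the Sycp1 domains of bham470 and ear003 end within 1 kb of the TSS on the gene side, as does that of bham359_362.

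Among the genes of meiotic chromosome structure, Sycp1 had the highest promoter excess of the 10 genes in both wild-type libraries. It encodes the transverse filament of the synaptonemal complex, which joins paired chromosomes in meiosis. Its promoter excess was 0.562 and 0.299 in wild type (bham359_362, then bham470), -0.089 and -0.050 in control (bham479, then ear001), and -0.096 and 0.281 in TDG KD (bham480, then ear003), and the same order is used for the following genes. The wild-type libraries were thus both above the siRNA control libraries, and the TDG KD libraries lay on either side of them. In wild type the promoter ranked at the 93.6 and 92.8 percentile of all genes, while in bham479, ear001 and bham480 it ranked at the 3.48, 5.34 and 5.42 percentile. The enriched domain was chr3:102739211-102741310 in bham359_362, chr3:102739211-102743710 in bham470 and chr3:102739311-102743410 in ear003, so that its downstream edge lay within 100 bp in the 3 libraries. In the remaining libraries the TSS lay in a background domain of 314600 to 367500 bp, and the nearest enriched domain was 139213 to 141788 bp away.

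Sycp3, which builds the axial and lateral elements of the same complex, had the same set of enriched libraries. Its excess was 0.413 and 0.113 in wild type, -0.031 and -0.029 in control, and -0.025 and 0.300 in TDG KD. The domain at its promoter was 1200 bp wide in bham359_362, 6800 bp in bham470 and 2600 bp in ear003. Enrichment in bham359_362, bham470 and ear003 and in no other library was seen in 3.51% of all genes, and Sycp1 and Sycp3 were the 2 of the 10 germline genes with it.

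Hormad1, a protein of the meiotic chromosome axis, was enriched in both wild-type replicates by the 1 bp rule, but differently. Its excess was 0.260 and 0.004 in wild type, -0.060 and -0.014 in control, and -0.082 and -0.133 in TDG KD. In bham359_362 the domain of 1000 bp lay across the TSS. In bham470 a domain of 11700 bp ended 353 bp upstream and took 32.4% of the window, so the TSS itself was in the background state. If at least 50% of the window had to be enriched, Hormad1 was not called in both wild-type replicates.

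Tex101 encodes a testis surface glycoprotein needed for sperm function and was enriched in 5 of 6 libraries, as were 19.4% of all genes in the same 5. Its excess was 0.224 and 0.250 in wild type, 0.143 and 0.087 in control, and 0.113 and 0.257 in TDG KD, above the library mean throughout. The domain outside bham359_362 was not specific to the gene, as it was 142700 to 295800 bp wide and held the start sites of 5 to 12 protein-coding genes. In bham480 the same stretch was unconfident.

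Among the genes of RNA regulation, Dazl and Ddx4 differed outside bham359_362. Dazl, an RNA-binding protein of germ cell translation, had an excess of 0.269 and 0.016 in wild type, 0.021 and 0.012 in control, and 0.080 and 0.096 in TDG KD. Ddx4, the germ cell RNA helicase known as Vasa, had 0.275 and -0.061 in wild type, -0.059 and -0.046 in control, and -0.068 and -0.057 in TDG KD. Both promoters thus had their highest value in bham359_362, where the median over all genes was highest as well, at 0.221 against -0.002 to 0.139 elsewhere. Ddx4 was below the library mean in every other library. Dazl was enriched in ear003 as well, in a domain of 15300 bp (chr17:50432721-50448020) that ran from upstream of the gene to just past the TSS.

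The piRNA pathway, which silences transposons in germ cells, was represented by 3 genes. Outside bham359_362, Mael and Asz1 were not enriched and lay below the library mean in every library, while Tdrd1 was above it in ear001 and ear003. Mael had the highest excess of the 3 genes in bham359_362, 0.372, with -0.092 in bham470, -0.024 and -0.023 in control, and -0.031 and -0.088 in TDG KD. Tdrd1, a tudor domain scaffold for PIWI proteins, had 0.236 and -0.043 in wild type, -0.024 and 0.003 in control, and -0.033 and 0.139 in TDG KD. It was enriched in ear001 and ear003, but the ear001 domain was 25000 bp wide and had a score of 0.0585, close to the library mean of 0.0492. Asz1, a protein of the piRNA machinery at mitochondria, had the lowest excess of the 10 genes in bham359_362, 0.074, with -0.049 in bham470, -0.066 and -0.028 in control, and -0.024 and -0.074 in TDG KD. Its domain of 500 bp in bham359_362 was the narrowest, and elsewhere its TSS lay in background domains of 449400 to 4624700 bp. Stk31, a germ cell protein with a kinase-like and a tudor domain, was like Asz1 in being enriched in bham359_362 alone, with an excess of 0.152 there and of -0.105 to -0.034 in the other libraries.

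The gene bodies, taken from 1 kb past the TSS to the gene end, mostly lay below the library mean. In bham359_362 the promoter was above the body at 9 of the 10 genes, beside 59.4% of all genes with a body. There 8 bodies were below the library mean, and the median body excess was -0.100, beside 0.112 over all genes. Sycp1 showed the widest contrast, with 0.562 at the promoter and -0.167 over its body, which ranked at the 1.61 percentile of all bodies. In bham470 its body ranked at the 0.38 percentile, at -0.117. Tex101 was the exception in bham359_362, with 0.224 at the promoter and 0.383 over the body of a gene that a single enriched domain covered. Tdrd1 had the only other body above the library mean in bham359_362, at 0.166, with 17 enriched domains over 49.1% of its length.

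**Figure D4:**
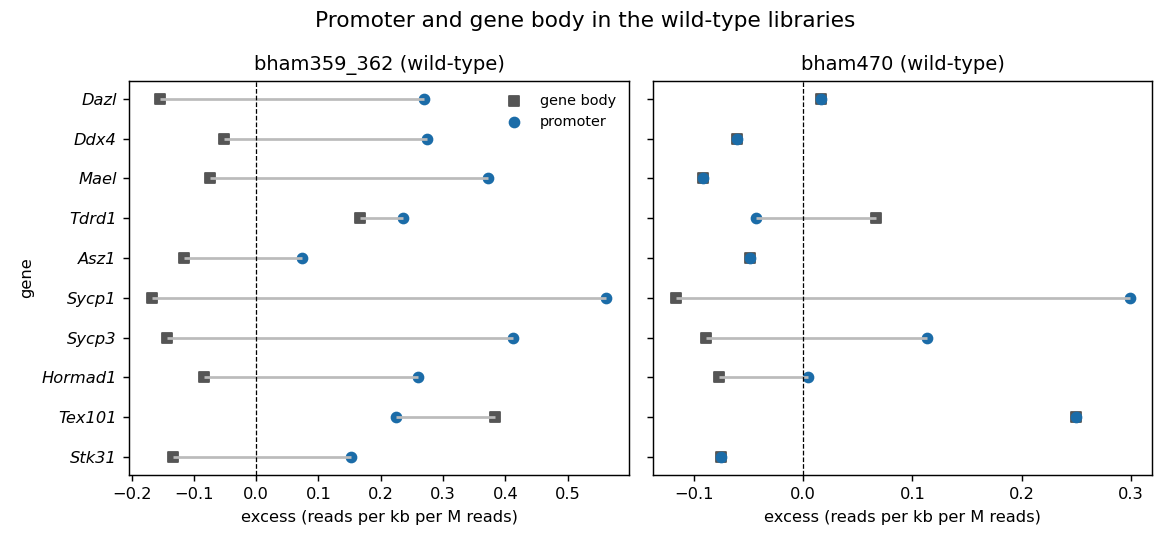
Excess (reads per kb per M reads, x axis) at the promoter (circle) and over the gene body (square) of each gene (y axis) in the 2 wild-type libraries, with a dashed line at the library mean. The circle is right of the square at 9 genes in bham359_362 and at 3 in bham470, beside 59.4% and 20.1% of all genes with a body. Where both symbols coincide a single domain covers promoter and body.

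In both wild-type replicates the promoter was above the body at Sycp1, Sycp3 and Hormad1, 3 of 10 genes beside 16.8% of the 18838 genes with a body. In bham470 the value of 6 genes was the same at promoter and body because they lay in the same domain. In the siRNA libraries the promoter was above the body at 0 genes in bham479, beside 17.8% of all genes with a body, and at 0 in ear001, beside 9.48%. In bham480 it was above at 1 (Mael), beside 15.1%, and in ear003 at 4 (Dazl, Tdrd1, Sycp1 and Sycp3), beside 29.4%.

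The siRNA control libraries, from transfected cells without feeders, were compared with wild type. Only Tex101 was enriched in both control libraries, beside 35.3% of all genes. It was the sole germline gene enriched in bham479, where the background was 46.2%, and Tdrd1 joined it in ear001, where the background was 41.2%. Sycp1, Sycp3, Hormad1 and Tex101 had both wild-type libraries above both control libraries, 4 of 10 genes beside 42.6% of all genes, and 0 of 10 had both below, beside 12.7%. From wild type to control the mean excess of Sycp1 went from 0.431 ± 0.186 to -0.070 ± 0.027 (SD, n = 2 each), a difference of -0.500, with p = 0.333 by an exact two-sided permutation test, the smallest that 2 against 2 libraries can give. For Sycp3 the difference was -0.293, for Hormad1 -0.169 and for Tex101 -0.122. At the other 6 genes the groups overlapped. The median difference over the 10 genes was -0.143, beside -0.109 over all genes.

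The knockdown comparison asks whether less TDG goes with more 5fC at these promoters, relative to the library mean. The paper states that its pulldown gives enrichment relative to input and not absolute 5fC. By mass spectrometry it reports a rise in overall 5fC on knockdown. The excess is centered on the mean of each library, so a rise shared by the whole genome was not tested. No germline promoter was enriched in both TDG KD replicates, beside 15.1% of all genes, and none in all 6 libraries, beside 12.1%. The replicates differed, with 0 of 10 promoters enriched in bham480, where 15.8% of all genes were, and 5 of 10 in ear003, where 56.7% were. These 5 were Dazl, Tdrd1, Sycp1, Sycp3 and Tex101. In bham480 the promoters of Mael and Tex101 were unconfident and the other 8 were background. With unconfident domains counted as enriched, the count in bham480 was 2, beside 49.6% of all genes.

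Dazl and Sycp3 had both TDG KD libraries above both control libraries, 2 of 10 genes beside 10.9% of all genes. For Dazl the mean excess was 0.088 ± 0.011 in TDG KD and 0.016 ± 0.007 in control (SD, n = 2 each), a difference of 0.072, with p = 0.333 by the exact permutation test. The difference of Dazl was 0.059 within BHAM and 0.085 within EAR, but it depended on the reference point. On the deposited score without subtraction of the library mean, Dazl was at -0.113 in bham480 and 0.164 in bham479, but at 0.357 in ear003 and 0.0825 in ear001. With that score 0 of the 10 genes had both TDG KD libraries above both control libraries. The share of all genes was not counted on that score, and bham480 had the lowest mean score of the pulldowns, -0.277. On ranks within the library the groups of Dazl overlapped as well, at the 67.8 and 46.6 percentile in TDG KD and the 52.6 and 55.3 percentile in control, and the 2 genes with TDG KD above control were Sycp1 and Sycp3. For Sycp3 the difference was 0.168, made up of 0.007 within BHAM and 0.329 within EAR. In bham479, ear001 and bham480 the TSS of Dazl and of Sycp3 lay in background domains of 61300 to 452600 bp. The values there are averages over far more than the promoter.

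Mael, Hormad1 and Stk31 had both TDG KD libraries below both control libraries, 3 of 10 genes beside 12.2% of all genes, with differences of -0.036, -0.071 and -0.045. All 5 of these genes reached the smallest p that the design allows, 0.333, so no gene could pass a threshold of 0.05. The TSS of Hormad1 and of Stk31 lay in background domains of 73400 to 197900 bp in each control and TDG KD library. Sycp1, with a difference of 0.162, overlapped between the groups because it was -0.096 in bham480 and 0.281 in ear003. Tdrd1 showed the same split, -0.010 within BHAM and 0.135 within EAR. TDG KD was above control within both prefixes at Dazl and Sycp3 and below it within both at Ddx4, Mael, Hormad1 and Stk31. Within BHAM some of these differences were small, at 0.007 for Sycp3, -0.007 for Mael and -0.009 for Ddx4. The share of all genes with the same sign within both prefixes was not counted, so this is a description only.

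**Figure D5:**
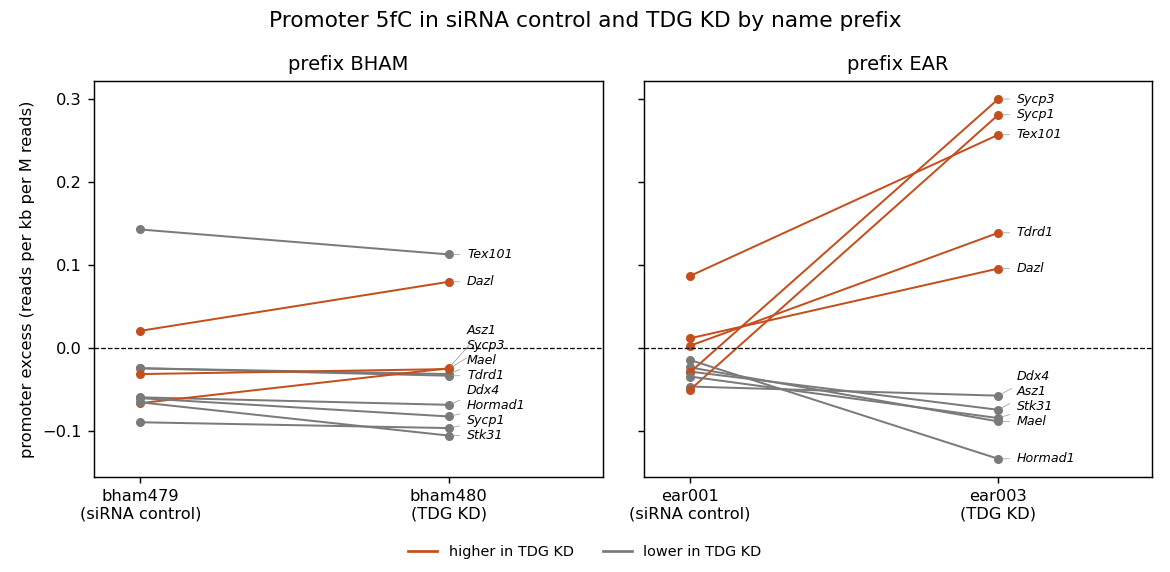
Promoter excess (reads per kb per M reads, y axis) of each gene in the siRNA control and TDG KD library of the prefix BHAM (left) and of the prefix EAR (right), with lines joining the same gene and orange for genes higher in TDG KD. Within EAR 5 genes lie higher in TDG KD, led by Sycp1 and Sycp3, and within BHAM 3 genes do, by at most 0.059, beside 13442 and 8634 of all 22089 genes.

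Over the 10 genes the median difference between TDG KD and control was 0.030, beside 0.026 over all genes. Within BHAM it was -0.008, beside -0.020, and within EAR it was 0.037, beside 0.087. TDG KD was above control at 5 of the 10 genes and at 13747 of 22089 genes. The germline genes thus had a median close to that of all genes in the mean of both prefixes, and below it within EAR.

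Of the 10 promoters enriched in bham359_362, fewer were also called in each of the other libraries than over all genes enriched there. The shares were 40.0% against 61.6% in bham470, 10.0% against 57.0% and 20.0% against 50.7% in the control libraries bham479 and ear001, and 0 against 19.8% and 50.0% against 70.4% in the TDG KD libraries bham480 and ear003. Across the libraries the median rank of the 10 promoters was the 57.3 percentile in bham359_362 and between the 28.1 and 36.8 percentile in the other 5.

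A list of 41 other germline genes, with roles in the piRNA pathway, meiosis and germ cell identity, gives the setting. Of these, 40 were found, and their promoters were enriched in 33, 23, 22, 22, 10 and 29 cases in bham359_362, bham470, bham479, ear001, bham480 and ear003. Enrichment in both replicates was seen at 22 in wild type, 20 in control and 10 in TDG KD. In all 6 libraries 8 were enriched, 20.0% beside 12.1% of all genes, among them Dnd1, Dpep3, Nanos3 and Piwil1. In none 5 of the 40 were enriched, beside 4115 of 22089 genes, among them Mei4, Rad21l, Taf7l and Tex11. Piwil1, a PIWI protein of male germ cells, had an excess of 0.465 and 0.199 in wild type, 0.196 and 0.086 in control, and 0.152 and 0.355 in TDG KD. Mei4, needed for meiotic double-strand breaks, had -0.116, -0.081, -0.066, -0.037, -0.042 and -0.096 in the same order. The other germline genes thus included promoters enriched in every library and promoters enriched in no library. Of 15 pluripotency genes, which ES cells express, the promoters of 9 were enriched in both wild-type replicates, 7 in both control replicates and 1 in both TDG KD replicates. These counts are 60.0%, 46.7% and 6.67%, beside 48.4%, 35.3% and 15.1% of all genes.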

How the data were processed

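5fC pulldown libraries of J1 ES cells were analysed: 2 wild-type, 2 siRNA control and 2 TDG KD, with 1 input library as their common background. Reads were aligned by the authors with BWA (0.6.1 per the submitters' processing notes) to mm9, those with a mapping quality of at least 15 were kept, and rseg, run in each library with the input as control, called domains in bins of 100 bp. The value used here is the deposited score of each domain, its average of pulldown minus input reads in a bin, which is unscaled for depth. A second deposited score, which grows with domain width, was not used. The pulldowns had between 20.4 and 45.9 M uniquely placed reads and the input had 26.5 M, taken from the supplement. Counts of reads at single promoters were not used, so intervals of counting error are left out and precision rests on 2 libraries per group.

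Samples were grouped by their labels. Computations used Python 3.11.15, NumPy 2.4.6, pandas 2.3.3 and SciPy 1.17.1, with figures from Matplotlib 3.10.9, and were tested on simulated data. The TSS was that of the transcript with the longest coding sequence. Percentiles are among the 22089 covered genes. Gene bodies of at least 1000 bp were taken. CpG classes used windows of 500 bp from 700 bp upstream to 300 bp downstream of the TSS: high, GC of at least 55% and an observed to expected CpG ratio of at least 0.75; low, no window with a ratio of 0.48; the rest intermediate. Groups were compared by exact two-sided permutation tests over libraries. The 10 genes were all named, from the other germline list the first 4 in alphabetical order enriched in all libraries and in none, and the pluripotency list was counted. Of the other germline list Tdrd5 was not found, and Henmt1 was taken under its name in the annotation. The genes and lists were chosen with earlier results of these data known. Alternatives were windows of 500 bp and 2 kb, any TSS, at least 50% of the window enriched, dropping the 25% of domains of lowest score, counting unconfident domains, other scalings, each library left out and each prefix alone.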

Additional observations from a re-analysis of the deposited data

How the results depend on the processing

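The counts of promoters enriched in both replicates or in all 6 libraries were unchanged by windows of 500 bp or 2 kb and by any TSS. In wild type the count of 4 became 3 when at least 50% of the window had to be enriched and 3 when the 25% of domains with the lowest score were dropped, and 4 to 10 when either library was left out, being 10 without bham470. In bham359_362 alone the count of 10 became 5 and 8 when 50% of the window was required and when the lowest domains were dropped. The count ran from 1 to 2 in control and from 0 to 5 in TDG KD with a library left out, being 2 without bham479 and 5 without bham480. With unconfident domains counted it was 1 in TDG KD and 1 in all 6 libraries, and the latter ran from 0 to 1 with a library left out, being 1 (Tex101) without bham480. The 2 genes with TDG KD above control became 0 on the deposited score, Sycp1 and Sycp3 on ranks, 2 to 5 with a library left out (5 without bham480) and 5 within EAR. The median difference over the 10 genes, 0.030, became -0.050 on the deposited score, -0.012 to 0.038 with a library left out and -0.008 within BHAM. It was negative without ear003. Genes with the promoter above the body in wild type ran from 3 to 9, being 9 without bham470. The cause of these changes was not tested. No paired analysis was possible because the labels give no replicate numbers and do not say that a name prefix marks a pair, so differences within prefixes are given as values. With 2 libraries a group, the smallest p of 0.333 limits every comparison, and outside bham359_362 the width of the domains limits how finely a promoter can be read.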
